A study of Pseudotsuga menziesii with 66 samples.

Results

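Old needles of Douglas-fir (Pseudotsuga menziesii) changed widely in their RNA between 7 Apr and 6 May 2011. The comparison uses 8 of the 66 libraries analysed here, taken by tree and date: trees CCTO44, CCTO46, CCTO89 and CCTO90 on both days, so that each tree is its own control over an interval of 29 days. All are young, untreated trees of Oregon Siskiyou low-elevation seed, grown in 1 garden in southern Oregon. CCTO44 and CCTO90 come from the higher of the seed localities, CCTO46 and CCTO89 from the lower. The needles on both days were of the 2010 set, pooled from several branches behind the tips at about noon, so those of May are about a month older. A replicate is a separate tree, but each date is a single day, so season, needle age and the weather of the day cannot be told apart. In bulk RNA, fewer cells of a type and less RNA per cell cannot be told apart either.

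Evergreen conifers carry their needles through several years. In winter these needles are cold-hardened and their photosynthesis is held down. In spring they lose hardiness and regain photosynthetic capacity while the buds swell and open, and the older needles then feed the growth of the new shoots. The files give each transcript an identifier and no gene name. No gene of these processes could therefore be followed, the tissue could not be checked against marker genes, and transcripts are called by their identifiers.

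The April libraries held 18111800 to 36637529 counts and the May libraries 14259890 to 22927377. Tests covered 60931 of 199471 transcripts, those with sufficient reads, and they held at least 99.7% of the counts of each of the 8 libraries. April and May libraries of the same tree deviated together from the means of their dates, with correlations across transcripts of 0.47 to 0.63. Correlations between different trees are no reference for these, since centring on 4 trees lowers them.

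Fewer kinds of transcript were detected in May than in April. At an equal depth of 14259890 counts, the number with at least 1 count went from 69468 to 63222 in CCTO44, from 71969 to 66431 in CCTO46, from 68357 to 62143 in CCTO89 and from 73139 to 66645 in CCTO90. Every April library thus lay above every May library. The May minus April difference was alike in the 4 trees, at -6123 ± 410 transcripts (SD, n = 4). It could not pass a two-sided exact sign-flip test, whose smallest p for 4 trees is 0.125 (adjusted p = 0.25 over 2 measures). An exact permutation test that ignores the pairing gave p = 0.0286, the smallest it can give. With at least 5 counts in place of 1 the difference was smaller and less even, at -2435 ± 1152 (SD, n = 4), and CCTO89 went only from 36605 to 35865. The share of counts in the 20 most abundant transcripts did not follow: it was 21.1% ± 3.5 in April and 22.7% ± 3.49 in May (SD, n = 4; exact sign-flip p = 0.625), and was higher in May in 3 of 4 trees.

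Between the dates 12650 of the 60931 transcripts changed, which is 20.8% of those tested. Of these, 5560 rose (9.13%) and 7090 fell (11.6%) at an adjusted p under 0.05 (edgeR quasi-likelihood test, tree as a block, Benjamini-Hochberg). Over all called transcripts the falls were also larger. The median change was 2.04-fold among the transcripts that rose and 2.64-fold among those that fell. By size, 2866 rises and 4923 falls reached 2-fold, 1055 and 1990 reached 4-fold, and 369 and 556 reached 10-fold. The median log2 change over all transcripts tested was -0.11, and the counts include this shift of the whole set. By RLE size factors this median was -0.10 with 5768 rises and 7041 falls, and by library totals alone it was -0.19 with 3798 and 7220. When the fit held only the libraries of these 2 dates, 3362 transcripts rose and 3615 fell among 32452 tested.

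With the scaling used here (TMM), the excess of falls lay in rare transcripts. Among transcripts that averaged under 1 CPM (counts scaled to a common library total) over all 66 libraries, 4.09% rose and 8.21% fell. From 1 to 10 CPM the shares were 10.9% and 14.2%. Above that the order turned, with 20.1% rising and 17.5% falling between 10 and 100 CPM, and 21.5% and 16% from 100 CPM on. The median log2 change of all tested transcripts went the same way, from -0.25 under 1 CPM to 0.10 from 100 CPM on. Over all classes together this median was -0.07 with upper-quartile scaling and -0.19 with library totals alone. Whether the turn above 10 CPM depends on the scaling was not tested. Within a class the called rises and falls were closer in size than over all: the median log2 change was 2.26 and -2.20 under 1 CPM, 1.03 and -1.20 from 1 to 10 CPM, 0.75 and -0.81 from 10 to 100 CPM, and 0.75 and -0.92 from 100 CPM on. The April libraries were deeper than the May library of the same tree in all 4 trees. With the 8 libraries drawn down to equal totals, 5055 transcripts rose and 5959 fell.

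**Figure D1:**
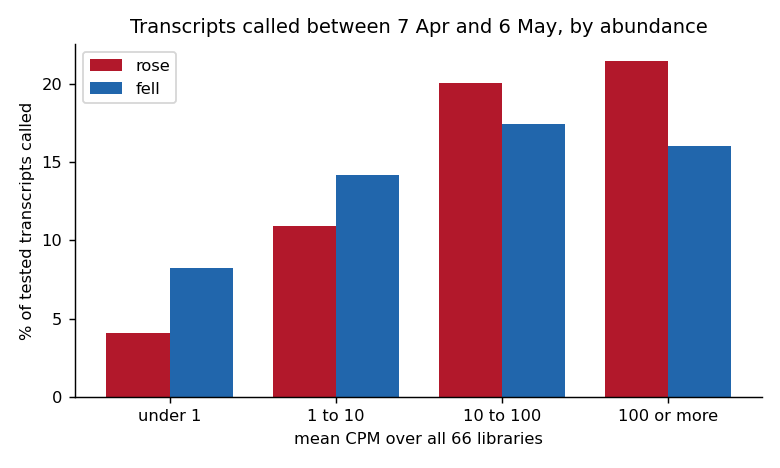
Share of tested transcripts that rose (red) or fell (blue) between 7 Apr and 6 May 2011, in % of the transcripts of each class (vertical axis), by their mean level over all 66 libraries (horizontal axis, CPM). Falls outnumber rises under 10 CPM and rises outnumber falls above it.

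The transcripts that rose held 11.7% to 14.6% of the counts of the April libraries and 21.9% to 23.6% of the May libraries, and those that fell held 13.9% to 19.7% and 6.53% to 10.5%. These shares describe transcripts chosen by the same difference. Counted over all transcripts with no choice among them, 21% to 24.2% of a tree's library was redistributed between its April and its May sample (the sum of the gains in share, which equals that of the losses). Different trees on the same day lay about as far apart, by 16% to 25.5% in April and 14.3% to 27.9% in May. The ranges of both kinds overlap. The net gain and the net loss were spread out: 125 transcripts made up 50% of the mean gain and 123 made up 50% of the mean loss. The transcript with the largest loss went from 3.32% to 1.23% of all counts, and the one with the largest gain from 3.62% to 4.8%.

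Most called transcripts had the same direction in the 4 trees. Of the 5560 transcripts that rose, 4665 (83.9%) were higher in May in each of the 4 trees, and of the 7090 that fell, 6168 (87.0%) were lower in each; 33.2% of all tested transcripts had 1 direction in the 4 trees. The 4 April and the 4 May levels did not overlap in 2361 of the rises (42.5%) and 3522 of the falls (49.7%). Of all tested transcripts, 11.5% had no overlap. The calls rest on the same 8 libraries and favour transcripts that move alike in the trees. These shares therefore describe the called transcripts and do not test the agreement of the trees. Over 11843 transcripts of at least 10 CPM, the change of a tree correlated with the mean change of the other 3 by r = 0.73 in CCTO44, 0.73 in CCTO46, 0.76 in CCTO90 and 0.54 in CCTO89. Over all tested transcripts r was lower, at 0.52, 0.56, 0.51 and 0.44 in the same order. These are descriptions across transcripts, which share their libraries and are not replicates. CCTO89 had the widest change, with a root mean square log2 change of 0.97, against 0.81 in CCTO44, 0.86 in CCTO46 and 0.75 in CCTO90.

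The trees also stood farther apart in these weeks than at other times. The median SD between these 4 trees, over the same transcripts on the log2 scale, was 0.36 on 10 Mar, 0.37 on 7 Apr and 0.40 on 6 May. On the 9 other dates with all 4 of them it lay between 0.23 and 0.32.

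Of 3969 transcripts with a mean of at least 10 CPM on these dates, a call and 1 direction in the 4 trees, the widest falls were those of psme_t010945 and psme_t023141. psme_t010945 was at 31.3 CPM in CCTO44, 75 in CCTO46, 41.8 in CCTO89 and 47.4 in CCTO90 on 7 Apr. On 6 May it was at 0.943, 1.34, 1.56 and 1.48 CPM in the same order. All May levels were near 1 CPM and far below every April level (log2 change -5.17, SE 0.46, edgeR adjusted p = 1.15e-11). Earlier in the year it was far higher, at 275.2 ± 81.6 CPM on 6 Jan (SD, n = 5). It was at 12 ± 3.11 CPM on 10 Mar (n = 5), rose by April (log2 change from March 2.08, SE 0.35, adjusted p = 6.81e-05, edgeR), and stayed at 0.214 to 4.6 CPM in all libraries from 6 May to 7 Sep. It was at 38.1 ± 15.5 CPM on 7 Oct 2011 (n = 3) but at 8.06 ± 2.26 on 26 Oct 2011 (n = 3), against 187 ± 56 on 27 Oct 2010 (n = 5).

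psme_t023141 marked April itself. It was at 28.5 CPM in CCTO44, 35.6 in CCTO46, 58.6 in CCTO89 and 22.1 in CCTO90 on 7 Apr, and at 1.57, 0.548, 0.372 and 1.61 CPM on 6 May (log2 change -5.08, SE 0.34, edgeR adjusted p = 2.58e-16). The groups did not overlap. A month before April it had stood at 4.35 ± 1.9 CPM (n = 5; log2 change from March to April 3.02, SE 0.27, adjusted p = 6.16e-12, edgeR). Outside April its highest level in any library of the year was 9.19 CPM, on 7 Feb, and after 6 May it stayed below 1 CPM in every library.

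Among the rises, psme_t033835 was the more abundant of the top pair. It stood at 7.63 CPM in CCTO44, 16.1 in CCTO46, 2.39 in CCTO89 and 5.71 in CCTO90 on 7 Apr and at 197.7, 592.2, 49.6 and 20.9 CPM on 6 May. The 2 dates did not overlap, but the May levels were far apart: CCTO46 was the highest and CCTO90 barely above the highest April level (log2 change 4.40, SE 0.87, edgeR adjusted p = 0.000186). The April level belonged to a low that in most trees had begun by late February. The transcript was at 474.8 ± 184.5 CPM on 27 Oct 2010 (n = 5) and 201.1 ± 168.8 on 7 Feb (n = 5). On 23 Feb it stood at 2.51 CPM in CCTO43, 5.42 in CCTO44, 14.7 in CCTO89 and 59.9 in CCTO46, and on 10 Mar at 5.93 ± 5.31 on 10 Mar (n = 5). The May mean of 215.1 ± 263.1 CPM (n = 4) lay among the means of autumn and winter, but the trees differed. CCTO46 was above and CCTO44 within its own levels of 27 Oct 2010 to 7 Feb. CCTO89, at 49.6 CPM, stayed below all of its own, the lowest of which was 98.6 CPM. CCTO90, at 20.9 CPM, was below all of its own except the 13.5 CPM of 6 Jan.

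The widest rise, that of psme_t029351, rested on the lower-locality trees. It was at 0.0517 CPM in CCTO46 on 7 Apr and 63.2 on 6 May, and at 0 counts (a limit of 0.166 CPM of all counts) and 23.5 CPM in CCTO89. In CCTO44 it went from 0.719 to 1.64 CPM and in CCTO90 from 1.52 to 3.16. All May levels lay above all April levels, but only just in CCTO44 (log2 change 4.54, SE 0.91, edgeR adjusted p = 0.00014). Without CCTO46 the log2 change was 2.59 and the call was lost (adjusted p = 0.0613, edgeR), as it was in a fit of these 2 dates alone (log2 change 4.02, adjusted p = 0.123).

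**Figure D2:**
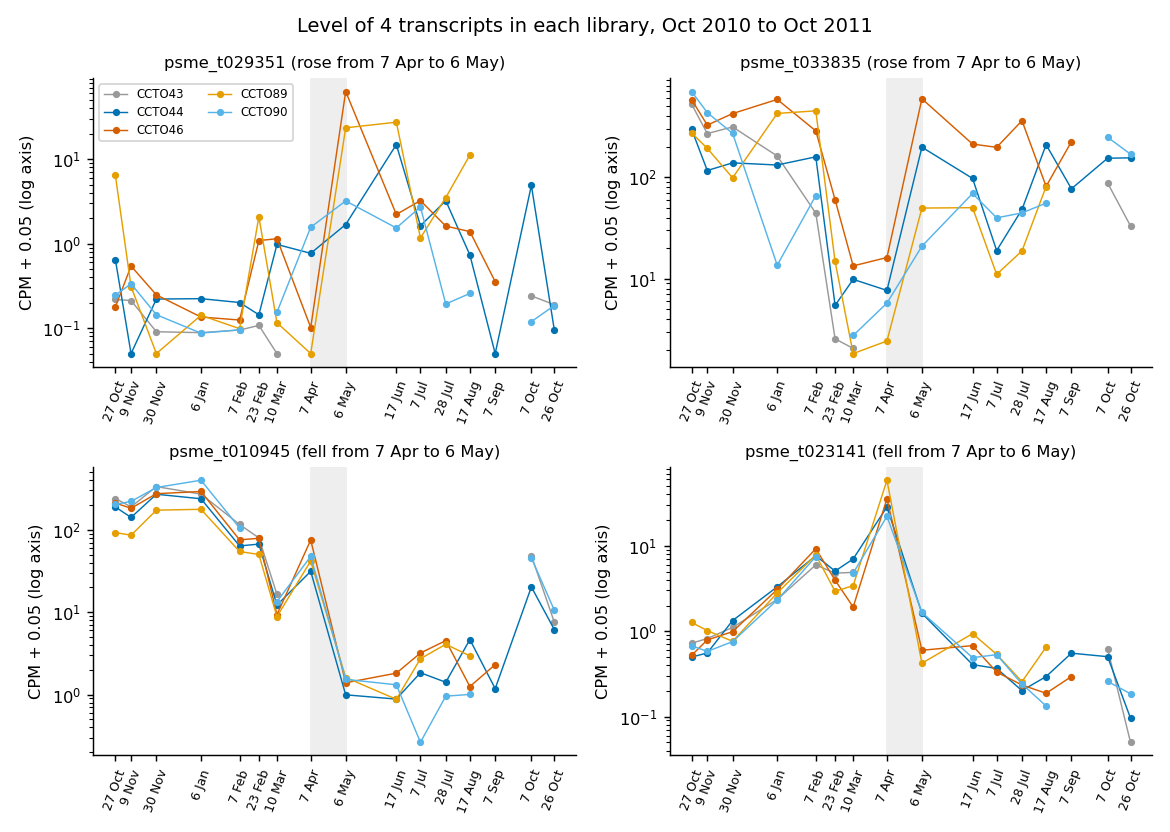
Level of the 4 transcripts in every library (vertical axis, CPM + 0.05, log axis) over the collection dates (horizontal axis), with 1 line per tree, broken where a tree was not sampled, and the interval from 7 Apr to 6 May 2011 shaded. psme_t010945 and psme_t023141 drop to between 0.372 and 1.61 CPM in the 4 trees, while the rises of psme_t029351 and psme_t033835 differ in size between trees.

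The transcripts called between April and May were then followed on dates other than these. Between 10 Mar and 17 Jun 2011, dates on either side of the interval, 6276 transcripts rose (10.3%) and 7724 fell (12.7%), by the same edgeR test. Of the 5560 that rose from April to May, 2838 (51.0%) were also higher in June than in March and 92 (1.65%) were lower. Of the 7090 that fell, 3339 (47.1%) were lower in June and 104 (1.47%) higher. The median log2 difference between June and March was 0.68 for the rises, -0.79 for the falls and -0.11 over all tested. March and June libraries are not part of the April-to-May difference, but they took part in the filter and in the shared estimates of spread and tree effects.

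Set against midwinter the same order was seen. Between 6 Jan and 17 Jun 59.9% of all tested transcripts changed. In that span 66.3% of the rises were higher in June and 9.37% higher in January, and 60.6% of the falls were higher in January and 9.03% in June; over all tested transcripts the shares were 28.3% higher in June and 31.6% higher in January. The autumn ran the other way. From 27 Oct 2010 to 6 Jan 2011, 34.3% of the rises had been lower in January and 5% higher, against 14.3% and 17.2% of all tested transcripts. Among the falls 31.5% had been higher in January and 10.2% lower. From 17 Jun to 7 Oct 2011, 29.5% of the rises were lower in October and 8.76% higher, and 23.5% of the falls were higher and 7.76% lower, against 13.7% higher and 12.6% lower over all. These last comparisons rest on 5 and on 3 October trees. Of the 3 trees of 7 Oct 2011, CCTO43 had no June library, and CCTO44 and CCTO90 are both of the higher locality. The comparisons also share the libraries of 6 Jan and of 17 Jun, so they are not separate from each other. In all of them transcripts with a small error are called more easily on both occasions.

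**Figure D3:**
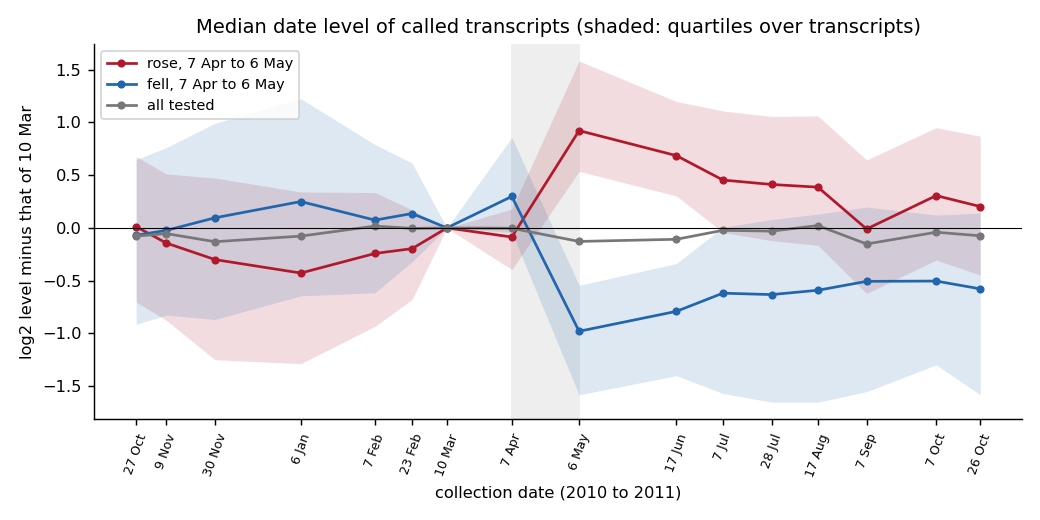
Median date level (tree effects removed) of the 5560 transcripts that rose (red) and the 7090 that fell (blue) from 7 Apr to 6 May 2011, and of all 60931 tested (grey), as log2 difference from 10 Mar 2011 (vertical axis) over the collection dates (horizontal axis). Shading spans the quartiles over transcripts; the gap between red and blue at the interval's end comes from the choice of the transcripts. After 6 May the medians stand at 0.68 and -0.79 on 17 Jun and lie closest on 7 Sep, at -0.01 and -0.51. On 7 Oct 2011 they are at 0.31 and -0.50, and on 27 Oct 2010 at 0.01 and -0.07.

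The dates of the year's highest and lowest levels describe these transcripts further, though choosing them by the April-to-May difference favours both dates as extremes. Of the rises, 2327 (41.9%) had their highest date level on 6 May, against 9.35% of all tested. Their lowest level fell most often on 6 Jan (1098, 19.7%) and 7 Sep (922, 16.6%), then on 30 Nov (805, 14.5%) and 7 Apr (760, 13.7%), where the shares of all tested were 8.92%, 15.4%, 11% and 5.37%. Of the falls, 1961 (27.7%) were highest on 7 Apr and 1373 (19.4%) on 6 Jan, against 8.08% and 12.7% of all tested. On 6 May 2125 of the falls (30.0%) were lowest, against 11.2% of all tested.

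To place whole libraries, each was projected on the April-to-May change of the other 3 trees, a scale on which every tree stands at 0 on 7 Apr and at 1 on 6 May. On 17 Jun the trees stood at 0.91 ± 0.047 (SD, n = 4), on 7 Jul at 0.78 ± 0.073, on 28 Jul at 0.77 ± 0.087 and on 17 Aug at 0.71 ± 0.045. On this scale the mean thus stayed nearer to May than to April up to 17 Aug and went down from date to date. The May libraries set the 1, so the scale does not measure how much of the May state was kept. On 7 Oct 2011 CCTO44 and CCTO90 stood at 0.58 and 0.74, and on 7 Sep CCTO44 and CCTO46 at 0.40 and 0.45. Before April the mean was 0.17 ± 0.11 on 27 Oct 2010 and -0.12 ± 0.1 on 30 Nov. On 6 Jan it was -0.26 ± 0.064, with all 4 trees below 0, on the side away from May. On 10 Mar the trees stood at 0.21 ± 0.13, from 0.041 to 0.33, so that all 4 lay on the May side of April on this scale. The same held on 27 Oct 2010, from 0.066 to 0.32. The April libraries set the 0, so anything peculiar to 7 Apr can also move other dates away from 0.

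**Figure D4:**
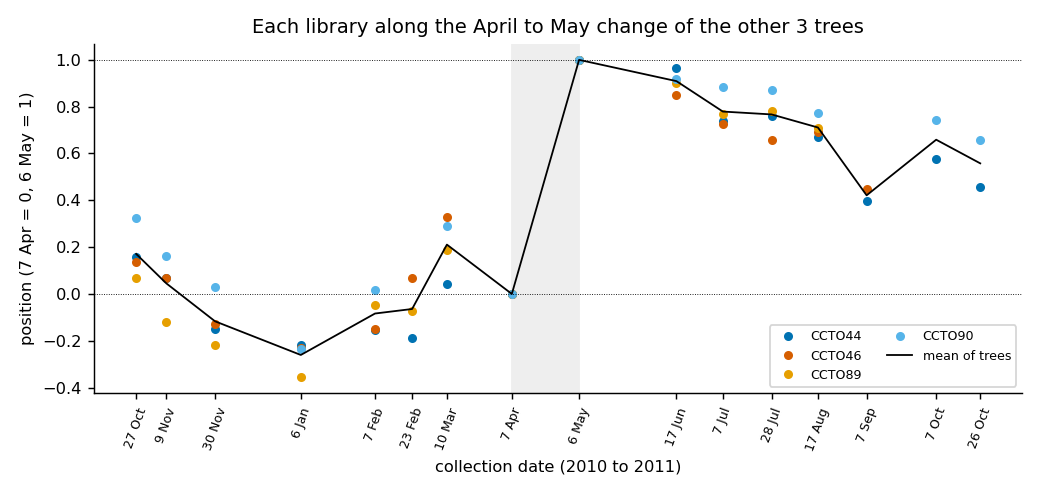
Position of each library of the 4 trees (points, coloured by tree) and their mean (line) along the April-to-May change of the other 3 trees (vertical axis, 7 Apr set to 0 and 6 May to 1) over the collection dates (horizontal axis). The summer libraries stay between 0.66 and 0.97 from 17 Jun to 17 Aug, and those of 10 Mar lie between 0.041 and 0.33.

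The neighbouring intervals were quieter. They share April or May libraries with this one, so they are set beside it and not crossed with it. Between 10 Mar and 7 Apr (28 days) 2291 transcripts rose (3.76%) and 1604 fell (2.63%), together 6.39%, and between 6 May and 17 Jun (42 days) 278 rose (0.456%) and 485 fell (0.796%), together 1.25%. Both counts depended on single trees. The first was 2012 without CCTO44 and 1983 without CCTO46, and the second was 235, 130 and 364 without CCTO44, CCTO46 and CCTO90. The size of the change needs no call: the root mean square log2 change per tree, over the 11843 transcripts of at least 10 CPM, was 0.62 to 0.69 from March to April, 0.75 to 0.97 from April to May and 0.54 to 0.63 from May to June. The tree with the smallest change from April to May thus still lay above all trees in both other intervals.

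A small group of transcripts was found almost only on 6 May. It was singled out after its values were seen: 15 transcripts had at least 10 counts in each of the 4 May libraries and over 95% of their level, summed over the 16 date means, on that day. Their summed level on 6 May was 61.5 CPM of all counts in CCTO44, 27.3 in CCTO46, 25.7 in CCTO89 and 49.3 in CCTO90. On 7 Apr they had 0 counts of 99320162 in the 4 libraries together, which allows 0.0302 CPM. These levels are what the rule selects and describe the group without testing it. In the 58 libraries of the other 14 dates they had 17 counts in 8 libraries, and at most 0.238 CPM in any one. Single members averaged 1.24 to 8.37 CPM in May. In May 11 of the 15 were highest in CCTO44, and each of the 15 was lowest in CCTO46 or CCTO89, the lower-locality trees. The members share the same 4 libraries, and the shares over all tested transcripts were not counted. These counts therefore do not show that the members move together.

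No other date had such a group. Under the same rule 27 Oct 2010 had 1 transcript and each of the remaining dates 0. With at least 1 count per library in place of 10, 6 May had 114, 27 Oct 2010 had 16, 26 Oct 2011 had 5 and the others 0 to 2. Dates after August rest on 2 of these trees. Whether they are Douglas-fir transcripts could not be examined without sequences.

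**Figure D5:**
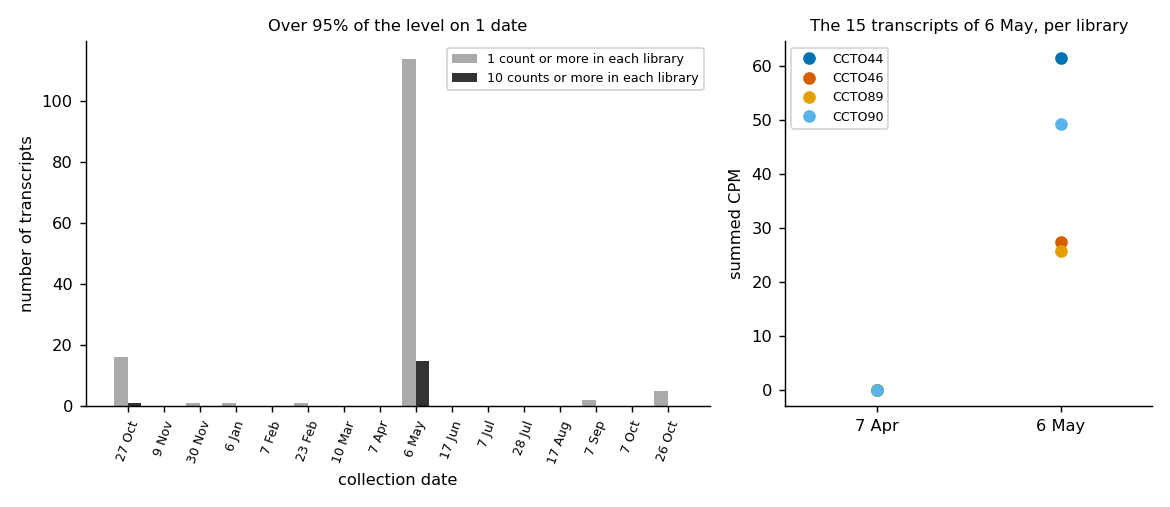
Left, number of transcripts (vertical axis) with over 95% of their level on a single collection date (horizontal axis), with at least 1 (grey) or 10 (black) counts in each library of the 4 trees on it. Right, summed level of the 15 transcripts of 6 May (vertical axis, CPM of all counts) in the 8 libraries: 0 in the 4 April libraries and 25.7 to 61.5 in the 4 May libraries.

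Whether trees of the 2 seed localities changed differently was tested as the difference of their April-to-May changes, 2 trees against 2. In 33 transcripts (0.0542% of those tested) the difference passed at an adjusted p under 0.05 by the edgeR test. An unadjusted p under 0.05 was found in 4841 (7.95%), where a share of about 5% would arise with no difference at all. In 28 of the 33 the change was more upward in CCTO46 and CCTO89, from the lower locality. Their median log2 change was 3.73 in CCTO46 and 4.82 in CCTO89, and -0.92 in CCTO44 and -1.35 in CCTO90. In 23 of the 28 the lower-locality trees were both higher in May and the others both lower. These medians and signs describe transcripts chosen by the same difference and do not test it. Most were rare: only 4 of the 28 were over 10 CPM, and 0 of the other 5. The count is not stable: without CCTO90 and without the tree as a block 0 transcripts passed, without CCTO44 3, without CCTO89 16 and without CCTO46 285, and DESeq2 called 202. Leaving out a tree leaves 1 tree in 1 of the localities on these dates, whose spread is then assumed to be that of the other libraries. With 2 trees per locality the median standard error of the difference was 0.98 on the log2 scale over all tested transcripts. At such an error, moderate differences between the localities were not detectable. Of the transcripts tested, 32182 averaged under 1 CPM. The error of this difference was not split by abundance. That of the April-to-May change had a median of 0.76 under 1 CPM and 0.19 from 10 to 100 CPM.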

How the data were processed

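Per the labels' protocols, poly(A) RNA of needles was made into strand-keeping libraries by dUTP marking for Illumina sequencing. Tools listed in the submitters' processing notes are Bowtie2 2.2.3, CASAVA 1.8 and DESeq. Neither the reference transcripts nor the way of counting is stated in the sources at hand, and near-identical transcripts may share reads. Whole-number counts deposited by the authors were the input of every test. The authors also deposited normalized signal values of 36145 transcripts, which equal the counts over 1 factor per library (largest relative deviation 5.9e-15) and served only as a list of transcripts; interpolated values were not used. Columns were matched to libraries by the tree and date in their names.

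Members, lists and alternatives were chosen with earlier results of these data known. Transcripts were kept by filterByExpr with a minimum count of 10 (60931 of 199471). edgeR 4.0.16 in R 4.3.3 was run with TMM factors, robust quasi-likelihood fits over all 66 libraries with date and tree, and Benjamini-Hochberg adjustment over all tested transcripts. Trees pair the libraries because the same trees were sampled on both dates. The seed-locality test added date by locality terms. CPM values use TMM-scaled totals except where given as CPM of all counts. Log2 levels of single libraries have a prior count of 2, as have the changes per tree, spreads and positions drawn from them. Log2 changes from the edgeR fit, and its date levels over the year, do not use this prior count. Transcripts are named by 1 rule: a mean of at least 10 CPM in the 8 libraries, an adjusted p under 0.05, 1 direction in 4 trees, and the 2 largest log2 changes in each direction. Intervals and limits from 3 counts cover counting error only. In these libraries 3 counts stand for 0.0819 to 0.21 CPM of all counts. No 2 of the 8 libraries agreed within sampling noise (lowest chi-square per degree of freedom 41.4 over 28 pairs). The test code was checked on simulated counts. Alternatives were RLE, upper-quartile and no scaling, other filters, DESeq2 1.42.0, no tree block, fewer libraries, and each tree left out.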

Additional observations from a re-analysis of the deposited data

Results flagged for a closer look

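Of 33 groups of 4 values examined, 3 held a value far from the others, where chance gives about 1 in 20. CCTO89 lay apart on the April-to-May scale on 6 Jan 2011, at -0.3565 against -0.24 in the nearest tree. Its change correlated least with that of the other trees over transcripts of at least 10 CPM, with r = 0.5449 against 0.73 in the nearest tree. CCTO90 changed least from 6 May to 17 Jun, by a root mean square of 0.5357 on the log2 scale against 0.62 in the nearest tree. The April-to-May change differed between the seed localities in 33 transcripts by edgeR, a count that ranged from 0 to 285 over the alternatives run.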

How the results depend on the processing

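Alternatives were run for the rises and falls of each comparison, the seed-locality count, the library measures and the positions of 4 dates. Of the values obtained, 143 were classed as the same as the reported one, 44 as moved and 1 as reversed. A further 1 newly passed its threshold. The class of 143 allowed wide differences in size. It held 3798 rises from April to May with library totals only, against 5560 reported. It also held a May minus April difference of -2435 detected transcripts with at least 5 counts, against -6123. For the share of the 20 most abundant transcripts it held a change of 3.97 percentage points without CCTO89, against 1.59. Without the tree as a replicate block, 3352 transcripts rose and 4473 fell from April to May, 1908 rose at least 2-fold, 1959 changed from March to April, 162 from May to June, 5039 fell from March to June, and 0 differed between localities; the drop in detected transcripts of -6123 then reached p = 0.0286 (exact permutation test). With only the libraries of the dates compared, with the replicate block, 3362 rose and 3615 fell, 1662 and 2467 by at least 2-fold; 1421 changed from March to April, 97 from May to June, 3559 rose and 3798 fell from March to June, and 150 differed between localities; fewer transcripts could be tested and fewer libraries gave the spread. With no filter 3683 rose from April to May, 2587 changed from March to April and 378 from May to June. With transcripts of at least 1 CPM 1688 rose and 2385 fell at least 2-fold. May to June gave 1281 with DESeq2, 434 with library totals only and 1223 without 3 libraries that stood apart. The locality count was 202 with DESeq2, 64 with library totals only, 7 from 1 CPM on, 2 in the authors' list of transcripts and 21 with 4 trees only. Added after the data were seen, trended dispersions gave 2 and equal totals 6. The cause of these shifts was not tested.

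When 1 tree was left out, rises numbered 3785 to 4477, falls 4832 to 5557, March-to-April changes 1983 to 3200, May-to-June changes 130 to 914, and locality differences 0 to 285. The share of the 20 most abundant transcripts changed by -0.80 percentage points without CCTO46 and by up to 3.97 without CCTO89. The position of 6 Jan was -0.34 over transcripts of at least 10 CPM and -0.43 to -0.15 when 1 tree was left out, and that of 7 Oct 0.60 to 0.84. Of the named transcripts, psme_t029351 lost its call in 2 of 16 alternatives; the others kept theirs in all 17. How depth limits the falls of rare transcripts was not tested by abundance class.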
